A study of Homo sapiens with 36 samples.

Results

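RBM10 eCLIP in HEK293T cells gave a deposited list of 28544 windows, each at most 100 nt long, in which immunoprecipitated (IP) RNA was enriched over matched input. All rows of that list were taken, which made up 28544 of the 788098 rows in the lists of the 9 proteins of the series. The 2 groups were RBM10 IP, with 2 libraries, and RBM10 input, with 2 libraries, both from HEK293T cells with no treatment named in the labels. HEK293T is a human embryonic kidney line that carries SV40 large T antigen. Enhanced crosslinking and immunoprecipitation (eCLIP) fixes proteins to the RNA they touch, fragments the RNA and sequences what an antibody to one protein recovers, while the input is the same lysate without that recovery. Per the labels' protocols, the antibody was raised against the protein or against a V5 tag, and which of these served RBM10 is not stated. The cell line could not be checked against marker genes, because the tables hold enriched windows and no expression values. Reads were deposited as sums over the replicates, so every value below is a description without a test between libraries.

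RBM10 is an RNA-binding protein with RNA recognition motifs and zinc fingers that regulates alternative splicing and often promotes exon skipping. It has been found in spliceosomal complexes that contain the U2 small nuclear ribonucleoprotein (snRNP), the particle that pairs with the branch site upstream of an exon. The end of an intron holds, in order, the branch site, a tract rich in pyrimidines and the terminal AG of the 3' splice site. RBM10 loss causes TARP syndrome, recurrent RBM10 mutations occur in lung adenocarcinoma, and one of its studied targets is an exon of NUMB, an antagonist of Notch signalling. RBM5 and RBM6 are its paralogs.

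Windows in the 100 nt of intron that end at a 3' splice site were the largest class of the list, and their sequence could be read where they overlapped a RefSeq promoter sequence (GRCh38.p14, 250 bases before to 50 after a gene start). That held for 159 RBM10 windows, and the GC fraction computed from the sequence equalled the deposited one in all 159. Of the 20 windows next to a 3' splice site among them, 18 ended in AG, the exceptions being AURKB and NPIPB3, while 20 of 139 windows of other classes (14.4%) did. All 22 windows next to a 5' splice site began with GT, against 13 of 117 windows outside the 5' and 3' splice site classes. Exons, and introns too short to separate the flanks of their splice sites, are classes of their own and were not left out. The 117 are therefore not a set of windows away from splice sites. The 6 windows ending in AG with the highest enrichment are printed 5' to 3' on the transcribed strand, to show the stretch of intron that was recovered. Capitals mark the final AG and the longest unbroken run of C and T in the 40 bases before it.
ARID4B, chr1:235326969-235327059, minus strand: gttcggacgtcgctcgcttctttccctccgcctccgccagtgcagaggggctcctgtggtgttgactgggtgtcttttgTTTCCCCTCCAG
PTTG1IP, chr21:44865448-44865547, minus strand: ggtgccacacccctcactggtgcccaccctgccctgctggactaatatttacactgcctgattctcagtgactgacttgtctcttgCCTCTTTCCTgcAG
TBCD, chr17:82941299-82941398, plus strand: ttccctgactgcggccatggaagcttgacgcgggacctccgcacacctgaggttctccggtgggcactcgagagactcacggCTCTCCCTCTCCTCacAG
ABHD3, chr18:21664231-21664330, minus strand: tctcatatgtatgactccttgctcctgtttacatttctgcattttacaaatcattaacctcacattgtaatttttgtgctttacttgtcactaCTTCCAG
MRPL34, chr19:17305731-17305830, plus strand: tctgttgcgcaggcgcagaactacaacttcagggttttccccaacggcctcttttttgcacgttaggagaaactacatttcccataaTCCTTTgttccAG
SLMAP, chr3:57889941-57890040, plus strand: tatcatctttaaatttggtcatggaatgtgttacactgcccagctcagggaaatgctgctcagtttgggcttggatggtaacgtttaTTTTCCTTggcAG

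The ARID4B window, in the gene of a chromatin-associated protein, held 124 IP and 0 input reads, and the PTTG1IP window held 352 IP reads against 5 input reads. TBCD, a tubulin folding cofactor gene, had 39 IP reads and no input read, and MRPL34, a mitochondrial ribosomal protein gene, 27 and none. Over the 18 windows that ended in AG, C and T made up a median of 73.2% of the 28 bases before the AG, ranging from 57.1% to 82.1%. In the rest of the same windows the median was 57.6%, and the stretch near the AG had the higher share in 16 of 18 windows. The longest run of C and T was between 5 bases and 14 bases long. These windows were chosen by their nearness to an annotated gene start, and no other windows of the class could be read here. They end at annotated 3' splice sites, where a pyrimidine tract and an AG are usual. Unlisted 3' splice sites were not read, so these shares describe the position of the windows and not a preference of RBM10.

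Some listed windows held a whole miRNA hairpin that ends at the splice site. Windows of the RBM10 list touched 29 of the 1562 hairpins in the RefSeq table (1.86%), and 14 of the 29 ended within 2 nt of the 3' splice site that closes a window, 13 of them in AG. The AG follows from that position. How many of the 1562 hairpins end at a 3' splice site was not counted, so the 14 are a description only. The hairpins in introns of EED, a Polycomb protein gene, SLC26A6, an anion exchanger gene, and DBNL, an actin-binding protein gene, are printed as examples with the final AG in capitals.
MIR6755 in EED, chr11:86278333-86278398, plus strand: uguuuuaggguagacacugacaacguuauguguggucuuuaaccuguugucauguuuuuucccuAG
MIR6824 in SLC26A6, chr3:48633636-48633698, minus strand: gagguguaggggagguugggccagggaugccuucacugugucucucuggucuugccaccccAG
MIR6837 in DBNL, chr7:44051766-44051829, plus strand: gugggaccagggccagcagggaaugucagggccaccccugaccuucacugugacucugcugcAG
The EED window held 54 IP reads and 1 input read, and the lower and higher replicates had log2 enrichments of 4.42 and 4.67. The SLC26A6 window held 82 IP and 2 input reads and the DBNL window 100 IP and 2 input reads. The log2 enrichment is a value of the authors, which the file headers call a log2 odds ratio, given as the lower, mean and higher of the replicates. The counts say nothing about whether the miRNAs were processed.

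The 28544 windows lay in 5095 genes, which was 45.1% of the 11302 genes with a window in any of the 9 lists. They held 2122181 IP reads and 150249 input reads, with a median of 45 IP reads and 2 input reads per window, and 15.2% of windows had no input read. The median log2 enrichment was 2.77 for lower and 4.34 for higher replicate values. The gap between the replicates had a median of 1.01 and depended on the input: it was 0.48 over windows without input reads, 1.59 with 1 input read, 1.74 with 2 and 0.54 with 10 or more. The less significant replicate still reached a q-value of 0.05 or lower in 8983 windows (31.5%), which lay in 3095 genes. A gene had a median of 3 windows, 1607 genes had 1, and 818 genes had 10 or more.

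Introns next to 3' splice sites held 9141 RBM10 windows in 3863 genes. This was 32.0% of the list (95% exact binomial interval 31.5 to 32.6), against 4.25% of the RNPS1 list, the next highest, and 1.37% of the RBM22 list. Such intervals, here and below, cover counting error only, because windows of one gene are not independent. Deep introns, farther than 500 nt from a splice site, held 4101 windows (14.4%), and the rest of the flank before a 3' splice site, called proximal here, held 3223 (11.3%). Introns too short to separate the flanks of their 2 splice sites held 2090 windows (7.32%), and the first 100 nt after a 5' splice site held 1960 (6.87%). Coding sequence held 1106 windows (3.87%), against 63.3% of the RNPS1 list, 46.3% of the CPSF6 list and 27.9% of the RBM22 list. The coding share was 1.36% among windows with a q-value of 0.05 or lower in each replicate. In the plot of window shares by position, the RBM10 list is the only one of the 4 lists drawn that is highest next to 3' splice sites.

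**Figure D1:**
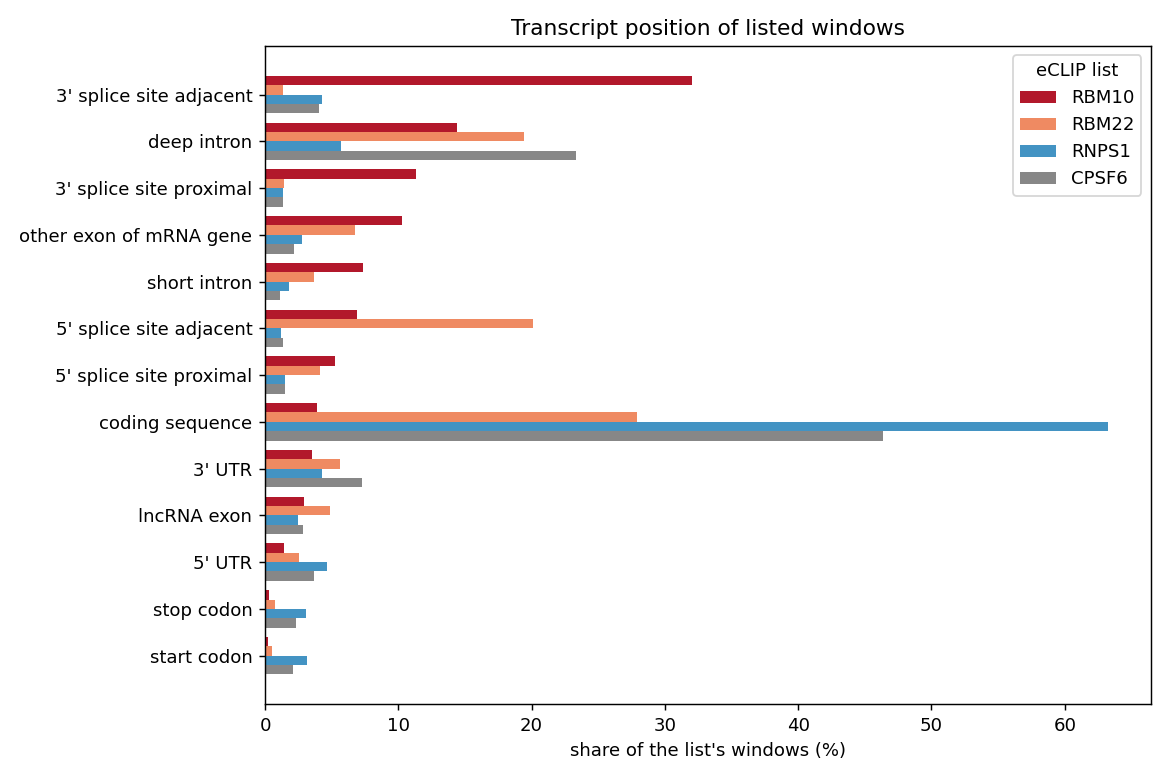
Share of listed windows (%, x axis) in 13 transcript positions (y axis) for the RBM10, RBM22, RNPS1 and CPSF6 lists. RBM10 has 32.0% of its windows next to 3' splice sites and 3.87% in coding sequence.

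Within the 500 nt before a 3' splice site, RBM10 windows gathered at the site. Of 11447 full-length windows in this flank, 8734 (76.3%) lay in the last 100 nt, 1542 (13.5%) in the next 100 nt upstream and 267 (2.33%) at 401 to 500 nt. The share in the last 100 nt was 79.4% for RNPS1 windows, 77.2% for CPSF6 windows and 53.5% for RBM22 windows, so that the gathering itself was not larger for RBM10 than for RNPS1 or CPSF6. In the second 100 nt the share was 13.5% for RBM10, against 6.22% for RNPS1 and 7.55% for CPSF6. The RBM22 share there was 16.2%, from only 32 of 198 windows, so this share did not set RBM10 apart from RBM22. After a 5' splice site, 59.9% of 2952 RBM10 windows lay in the first 100 nt, against 85.3% of RBM22 windows. RBM22 is a spliceosomal protein that contacts U6 and the intron near the 5' splice site.

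**Figure D2:**
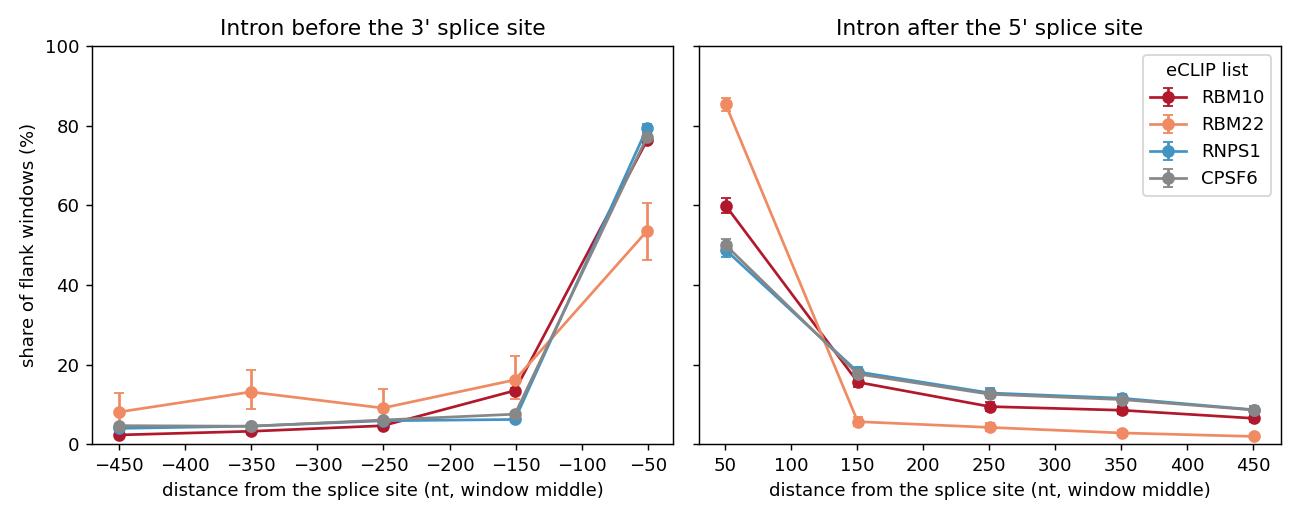
Share of the intron windows within 500 nt of a splice site (%, y axis) by distance of the window middle from the site (nt, x axis), before 3' splice sites (left) and after 5' splice sites (right), with 95% exact binomial intervals. RBM10 has 76.3% of its 3' flank windows in the last 100 nt and 59.9% of its 5' flank windows in the first 100 nt.

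The exon that follows an RBM10 window was rarely listed. Of the 9141 windows next to a 3' splice site, 207 (2.26%, interval 1.97 to 2.59) touched an exon window that was also in the RBM10 list, against 80.1% of 6494 such windows for RNPS1, 63.6% of 6359 for CPSF6 and 6.72% of 119 for RBM22. The lists also differ in exon windows as a whole, which were 22.7% of the RBM10 list, 84.1% of the RNPS1 list and 67.1% of the CPSF6 list. How far this make-up accounts for the contrast was not tested. RNPS1 binds spliced mRNA with the exon junction complex, and CPSF6 is a subunit of cleavage factor Im. A listed window just upstream, in the proximal flank, touched 1217 (13.3%) of the RBM10 windows. The 5' splice site at the other end of the same exon was listed for 538 (5.89%), and the 5' splice site that opens the same intron for 1020 (11.2%). The 538 exons with both flanks listed had a median length of 112 nt. None of these 4 neighbours was listed for 6690 windows (73.2%). Windows with a listed proximal neighbour had a median of 81 IP reads, against 40 for those without.

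The 5 windows of highest lower-replicate enrichment next to a 3' splice site were in DTNA, ATP6V0A1, BTN3A2, MTMR3 and ATP8B2. DTNA encodes a dystrophin-associated protein, and its window on chromosome 18, 34858185 to 34858284, held 278 IP reads with input at 0, with log2 enrichments of 7.36 and 8.33. ATP6V0A1 encodes a subunit of the vacuolar proton pump, and its window held 129 IP reads and no input read (6.88 and 7.35). BTN3A2, of the butyrophilin family, had 285 IP reads and no input read (6.88 and 8.52), and MTMR3, a phosphoinositide phosphatase gene, had 162 and none (6.82 and 7.08). The DTNA and ATP8B2 windows were in no other list, while the BTN3A2 window was also listed for CPSF6, EIF4B and RBM22. With no input read, the size of these enrichments depends on a baseline that the sources used here do not state.

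The strongest windows farther upstream, in the proximal flank, were in VCL, TTC12, PCNT and UBE3C among others. VCL encodes vinculin, a protein of cell adhesions, and its window on chromosome 10, 74113984 to 74114083, held 203 IP and 0 input reads (7.37 and 7.41). PCNT, the gene of the centrosome protein pericentrin, had 269 IP and 0 input reads (6.68 and 7.94). The VCL, TTC12 and PCNT windows were in no other list, as were 70.3% of all proximal windows. In short introns, the highest values after HNRNPA1, which is described with the hnRNP genes, were in ITGAE, an integrin gene, with 182 IP and 0 input reads (6.84 and 6.89) in a window of chromosome 17, 3723536 to 3723587. PABPC4, a poly(A)-binding protein gene, had 130 IP and 0 input reads (6.30 and 6.47).

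Next to 5' splice sites the strongest windows were in MXD3, RXRB, CNTROB, POC1A and SLC7A6. MXD3, a gene of the MAX dimerization network, had 253 IP and 0 input reads (6.55 and 7.87), in a 5' splice site window on chromosome 5, 177310641 to 177310667. RXRB encodes a retinoid X receptor, and its window held 117 IP and 0 input reads (6.53 and 6.68). The RXRB and POC1A windows were also in the RBM22 list, while those of MXD3, CNTROB and SLC7A6 were in no other list. The windows of this class had a median GC content of 54.0%, against 63.0% for the 1741 windows of the RBM22 list there. Beyond the first 100 nt, SPPL2B, an intramembrane protease gene, had adjoining windows with 185 and 158 IP reads and input at 0 in both. UBTD2 had 766 IP and 2 input reads (6.25 and 7.64) in a window that CPSF6, EIF4B and RBM22 shared.

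Exonic windows were fewer and had more input reads. In 3' UTRs the highest lower-replicate values included RPL18, a ribosomal protein gene, with 186 IP and 0 input reads (6.87 and 6.92), and METTL17, a mitochondrial methyltransferase-family gene, with 228 IP and 1 input read (6.12 and 7.53). In 5' UTRs, PRPF31, a tri-snRNP protein gene, had 275 IP and 2 input reads (5.20 and 7.57). Over start codons, RBM3, a cold-inducible RNA-binding protein gene, had 1044 IP and 25 input reads (4.37 and 5.54). Over stop codons, LENG8 had 818 IP and 12 input reads (5.05 and 5.10), in a window that 6 other lists shared. Median input was 5 reads per window in coding sequence and 5 in 3' UTRs, against 2 next to 3' splice sites. Coding windows were shared with the RNPS1 list in 86.1% of cases and with the CPSF6 list in 77.8%.

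Several genes carried RBM10 windows at many of their 3' splice sites. HUWE1, a ubiquitin ligase gene with many introns, had 44 such windows among its 110, UBR4, another ubiquitin ligase gene, 25 among 48, and FANCD2, of the Fanconi anaemia DNA repair pathway, 22 among 40. CAD, the gene of the enzyme that starts pyrimidine synthesis, had 21 among 43, and DNMT1, the maintenance DNA methyltransferase gene, 18 among 51. HUWE1 windows held 5835 IP reads against 420 input reads, and UBR4 windows 2279 against 109. Neither the number of introns nor the transcript level was available for a correction of these counts.

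The median lower-replicate log2 enrichment was 3.09 next to 3' splice sites and 2.65 in deep introns, a difference of 0.44. This difference was 0.64 over windows with at least 50 IP reads, 0.29 with the higher replicate's values and 0.02 over the 8983 windows within the q-value limit of 0.05. Short introns had a median of 2.99, the proximal flank 2.80, the first 100 nt after 5' splice sites 2.70 and coding sequence 2.08. Windows next to 3' splice sites also passed that q-value limit most often among these classes, 41.6% of them, against 23.4% in deep introns and 11.03% in coding sequence. Outside these classes, small RNAs passed the limit in 71.7% of windows, lncRNA exons in 40.6% and noncoding exons of mRNA genes in 39.8%. The median GC content was 47.0% next to 3' splice sites and 51.5% in deep introns, and this difference of -4.52 points shrank to -1.0 under the same limit.

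**Figure D3:**
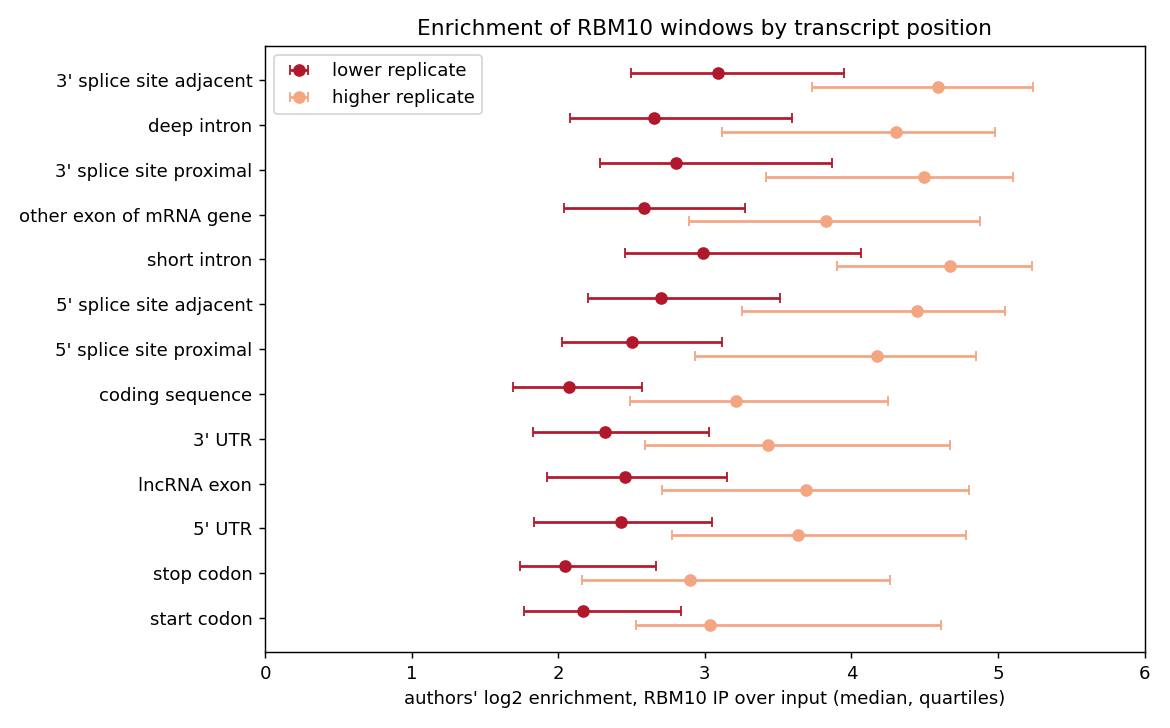
Authors' log2 enrichment of RBM10 IP over input (x axis) in 13 transcript positions (y axis), as the median (points) and quartiles (bars) of the lower and the higher replicate. Medians of the lower replicate run between 2.05 over stop codons and 3.09 next to 3' splice sites, and the quartiles overlap.

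Spliceosomal RNAs held a small number of windows with very many reads. U2 small nuclear RNA (snRNA), which pairs with the branch site, and its near-identical copies held 14 windows, 12 of them the first, 5' window of a copy that the annotation splits into 2, and 145070 IP reads, or 6.84% of all IP reads in the list. The same windows held 13.2% of the input reads in the list, in which most windows have few input reads. In the RBM22 list the U2 windows held similar shares, 5.54% of IP reads and 14.3% of input reads. The IP share was 0.253% in the RNPS1 list and 0.372% in the CPSF6 list, and the input shares were 1.95% and 1.60%. These shares depend on the IP reads in each list, which were 8815128 for RNPS1, 8891672 for CPSF6, 2122181 for RBM10 and 780368 for RBM22. The U2 windows held 22323 IP reads for RNPS1, 33071 for CPSF6 and 43203 for RBM22. In the RBM10 list, RNU2-2P had 55238 IP reads against 8865 input reads (log2 enrichments of 2.55 and 2.78), and RNU2-1 had 36439 against 6670 (2.33 and 2.61). A copy named U2 in the files had 27035 against 3000 (3.08 and 3.27), and RNU2-4P had 19447 against 424 (5.56 and 5.74). Reads of near-identical copies can be split or placed differently by a mapper, so the values of single copies are uncertain. Whether the copies with few input reads carry signal of their own was not tested.

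Of the 14 U2 windows, 7 were also listed for other proteins and 7 were in the RBM10 list only, among them both windows of RNU2-61P with 4309 and 179 IP reads. The RBM22 list held 6 U2 windows, with lower-replicate enrichments between 1.39 and 2.20, and the RNPS1 and CPSF6 lists also held 6 each, while GRB2 and MBNL2 had none. On RNU2-2P the lower and higher values were 2.55 and 2.78 for RBM10, against 1.39 and 1.55 for RBM22, 1.47 and 1.54 for RNPS1 and 1.08 and 1.77 for CPSF6. For the 6 copies that these 4 lists share, the RBM10 lower replicate was above the higher replicate of each of the other 3 lists. Each list has its own inputs and baseline, and the difference between lists was not tested.

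**Figure D4:**
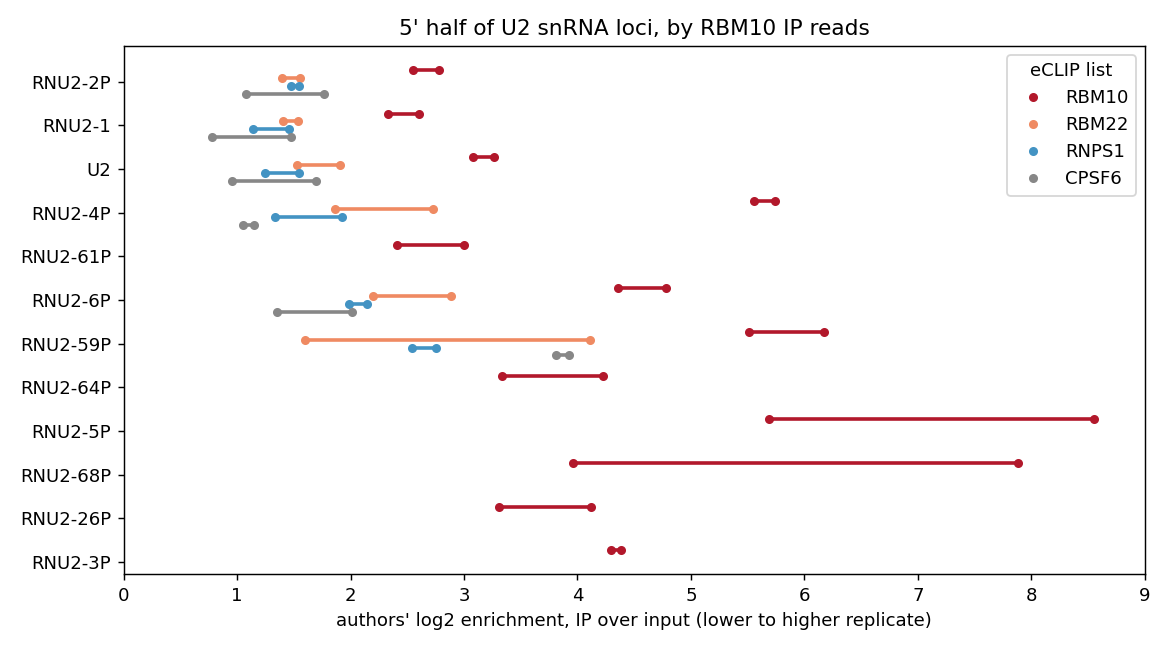
Authors' log2 enrichment of IP over input (x axis) in the 5' window of 12 U2 snRNA loci (y axis, ordered by RBM10 IP reads), with a bar between the lower and the higher replicate. RBM10 values lie to the right of those of RBM22, RNPS1 and CPSF6 on the 6 loci that all 4 lists share.

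U6 snRNA, which replaces U1 at the 5' splice site and pairs with U2 in the active spliceosome, held 22 RBM10 windows with 22878 IP reads. RNU6-7 held most of these reads, with 17872 IP against 1223 input reads in its 5' window (log2 enrichments of 2.97 and 3.87). In the RBM22 list U6 held 21 windows and 29616 IP reads, 3.80% of that list's IP reads against 1.08% for RBM10. The RBM22 values on the 5' window of RNU6-7 were 3.02 and 4.04. Of 11 U6 windows in both lists, the lower-replicate enrichment was higher for RBM10 in 3 and higher for RBM22 in 8. On the 5' window of RNU6-17P it was 1.51 for RBM10 against 4.85 for RBM22, and on that of RNU6-1266P 1.43 against 4.65. U1, U4 and the minor spliceosome RNAs held 1 RBM10 window each and U5 held 2, all of them in variant or pseudogene copies. Most U6 windows also lay in copies named as pseudogenes. By exact gene name, 3 of 23 spliceosomal RNA genes (RNU2-1, RNU2-2P and RNU6-7) had windows, and 7 of the 23 had a window in any of the 9 lists, so that the share was 42.9% against 45.1% of all genes with any window.

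A few introns carried long unbroken stretches of RBM10 windows. Joining windows that touch, also across classes, gave 22031 regions, of which 17957 (81.5%) were single windows and 23 held 10 windows or more. NSUN6, an RNA cytosine methyltransferase gene, had 190 windows, 187 of them in deep intron, with 16690 IP reads against 223 input reads. Its longest unbroken region covered 8094 nt on chromosome 10, 18553271 to 18561364, in 81 windows with 10114 IP reads against 108 input reads. RILPL1, a gene linked to lysosome and cilium biology, had a region of 43 windows over 4292 nt with 14393 IP reads against 236 input reads. All 81 and all 43 of these windows were in the RBM10 list only.

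Other genes with many deep intron windows were GSE1 with 111, MAD1L1, a spindle checkpoint gene, with 96, and ANKRD11 and CTBP1, both transcriptional regulator genes, with 62 and 61. They shared more with other lists: 67.2% of all GSE1 windows, 49.5% of MAD1L1, 35.6% of CTBP1 and 8.43% of ANKRD11 windows were in the RBM10 list only, against 99.5% for NSUN6. NSUN6 had 120 windows in the GRB2 list too, with 5337 IP reads against 98 input reads there. Among single deep intron windows, ITFG1 had 569 IP reads and no input read (8.19 and 9.63), and NEDD4, a ubiquitin ligase gene, 454 and none (7.02 and 9.39).

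Some of the strongest windows were strong for several proteins. The window of highest lower-replicate enrichment in the list was in the coding sequence of SPIN4, a spindlin family gene, with 791 IP and 0 input reads (8.31 and 10.00). It was also listed for CPSF6 (235 IP, 4 input), EIF4B (467 IP, 1 input), RBM22 (281 IP, 3 input) and RNPS1 (9 IP, 0 input). ITFG1 and ETV5, an ETS transcription factor gene, had deep intron windows listed for CPSF6, EIF4B and RBM22 as well. In ETV5 the RBM10 libraries had 739 IP reads and 1 input read, against 844 and 0 for RBM22, 529 and 0 for CPSF6 and 517 and 0 for EIF4B. The cause of this sharing was not tested. MCM3AP, an mRNA export factor gene, had a window of 318 IP reads and no input read (7.54 and 7.79) in a noncoding exon that was in the RBM10 list alone.

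The larger share of the list was in no other list. That held for 15294 windows (53.6%), and for 61.6% of windows next to 3' splice sites, 58.3% in deep introns and 7.23% in coding sequence. The largest overlap was with RNPS1, at 8094 windows, which was 28.4% of the RBM10 list and 5.30% of the RNPS1 list. CPSF6 shared 7560 windows (26.5% of the RBM10 list and 4.86% of the CPSF6 list), and RBM22 shared 1503 (5.27% and 17.3%). Weighted by IP reads, the share of the RBM10 list also in the RBM22 list was 17.1%. The 46 small RNA windows held 8.41% of the IP reads, and 20 of them were also in the RBM22 list. Among these 20 were the U2 windows of RNU2-2P and RNU2-1. How far such windows account for the weighted share was not tested. The RBM22 overlap differed by splice site. Next to 5' splice sites 421 windows were shared (21.5% of RBM10 and 24.2% of RBM22 windows there), and next to 3' splice sites 81 (0.886% of RBM10 and 68.1% of the 119 RBM22 windows there).

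Noncoding exons of mRNA genes, which the annotation keeps apart from coding sequence and UTRs, held 2926 RBM10 windows (10.3%), against 6.77% for RBM22 and 2.76% for RNPS1. ANAPC5, of the anaphase-promoting complex, had 24 such windows, and DDX5, an RNA helicase gene, had 22. PTBP1, which encodes a splicing repressor, had 19, with 3597 IP reads. In 3' UTRs, which held 3.56% of the list, SUGP2, a gene of the SURP and G-patch family, had 28 windows with 5487 IP reads. The nuclear noncoding RNA NEAT1, which builds paraspeckles, had 43 windows with 35298 IP reads against 4416 input reads, at lower-replicate enrichments between 0.92 and 4.29, and none of the 43 was in the RBM10 list only. MALAT1, another nuclear noncoding RNA, had 6 windows with 7665 IP reads against 2234.

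RBM10 windows lay in the RBM10 transcript itself. It had 41 windows with 4192 IP reads against 113 input reads, 40 of them in introns and 1 in coding sequence. The strongest by reads, on chromosome X, 47176400 to 47176499, ends at a 3' splice site and had 734 IP reads against 4 input reads (4.75 and 6.06). The exon after it is 87 nt long, and the 5' splice site window on its other side, 47176587 to 47176686, had 152 IP reads against 5. Exons of 70 nt and 74 nt in the same gene also had both flanks listed. Around the 70-nt exon the windows held 121 IP and 2 input reads upstream and 219 IP and 13 input reads downstream, and around the 74-nt exon 193 and 3 upstream and 133 and 3 downstream. For none of these 3 exons was the exon window that touches the 3' splice site listed.

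**Figure D5:**
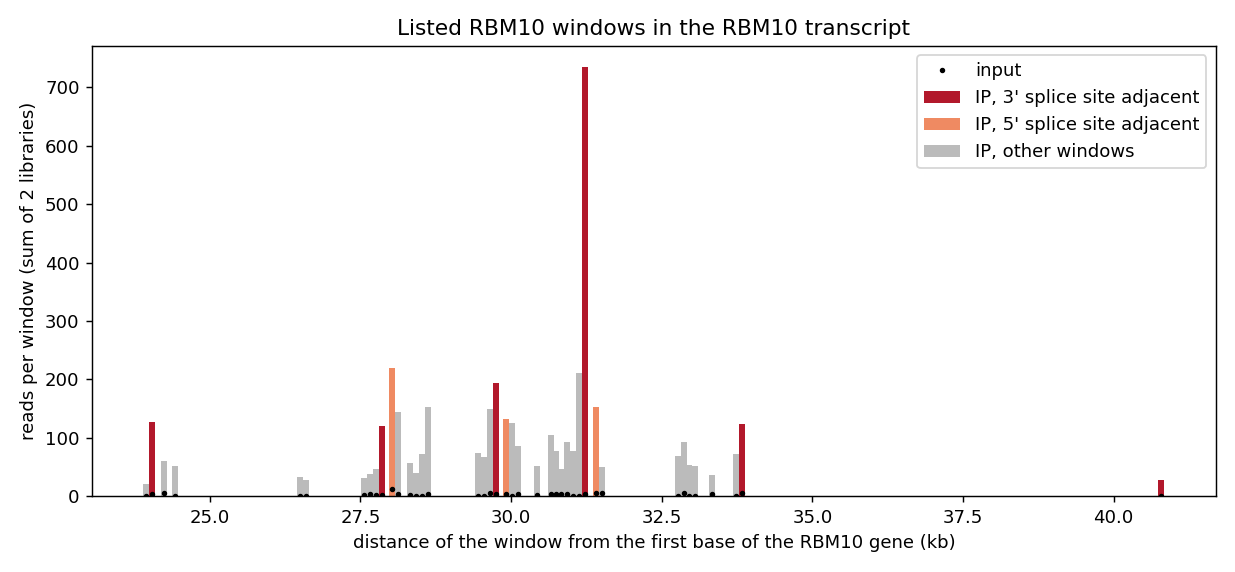
Reads per listed window (y axis, sum of 2 libraries) in the RBM10 transcript by distance from the first base of the gene (kb, x axis), with IP as bars coloured by position and input as points. The tallest bar, 734 IP reads, ends at a 3' splice site.

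RBM10 and its paralogs, 3 genes of 3, were all in the list. RBM5 had 38 windows with 3486 IP reads, 10 of them next to 3' splice sites and 13 in exons, and RBM6 had 16 with 1000 IP reads, 7 next to 3' splice sites. The strongest RBM5 window was in a noncoding exon on chromosome 3, 50102896 to 50102988, with 332 IP reads against 6 input reads (4.03 and 6.44). Of 6 genes known as splicing targets of RBM10, 4 were in any of the 9 lists and 3 of these in the RBM10 list (RBM5, EIF4H and NUMB), a number too small to set against the 45.1% of all genes with any window. FAS, BCL2L1 and DLG4 had no RBM10 window. FAS was listed for CPSF5 and EIF4B, and BCL2L1 and DLG4 were in none of the 9 lists. A gene can lack windows for want of binding or for want of reads, and the lists cannot tell these apart.

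NUMB had 2 windows, both next to 3' splice sites. The window on chromosome 14, 73277294 to 73277393, had 22 IP and 0 input reads (4.25 and 4.79). The one at 73279425 to 73279524 had 34 IP and 3 input reads (2.64 and 2.85). In the less significant replicate their q-values were 0.0752 and 0.108, so neither NUMB window passed the q-value limit of 0.05. EIF4H, a translation initiation factor gene, had 6 windows with 24 to 97 IP reads each. Their q-values in the less significant replicate lay between 0.00156 and 0.132, so not all passed that limit. Of 36 genes of the Notch pathway, 22 had a window in any of the 9 lists, and 12 of those 22 (54.5%) were in the RBM10 list, against 45.1% of all genes with any window. Among those, NCOR1, a corepressor gene, had 18 windows, 12 of them next to 3' splice sites, NCSTN, a gamma-secretase subunit gene, had 8, and SPEN, a corepressor gene, had 6. The receptor genes NOTCH1, NOTCH2, NOTCH3 and NOTCH4 had none, and of these NOTCH2 was in other lists.

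Of the genes of the splicing machinery with a window in any of the 9 lists, 84.0% of the U2 group and 61.1% of the tri-snRNP group were in the RBM10 list, against 45.1% of all such genes. The gene lists were chosen with earlier results of these data known and are described without a test. Of 25 genes of the U2 snRNP and branch site recognition, 21 had windows, with 67 of the 210 windows (31.9%) next to 3' splice sites, close to the 32.0% of the whole list. SF3B3 had 35 windows, SF1, the branch site binding protein gene, 29, and U2AF2, which encodes the large subunit of the polypyrimidine tract binding factor, 25, while SF3B5, SF3B6, SNRPB2 and SMNDC1 had none. RBM17 had a window of 107 IP reads and no input read (6.35 and 6.95), and CHERP, another U2-associated factor gene, one of 92 and none (5.47 and 6.65). Of 36 genes of the tri-snRNP and catalytic spliceosome, 22 had windows, and 74 of their 160 windows (46.2%) were next to 3' splice sites. PRPF8, the gene of the largest U5 protein, had 49, and EFTUD2 23.

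Genes of splicing regulators had more of their windows in exons. Over 15 of 17 SR protein genes with windows, 89 of 165 windows (53.9%) were exonic, over 22 of 26 hnRNP genes 190 of 371 (51.2%), and over 11 of 12 genes of U1 and 5' splice site recognition 112 of 174 (64.4%), against 22.7% of the whole list. All of these genes had a window in some list, and the shares of them in the RBM10 list (88.2%, 84.6% and 91.7%) stand against 45.1% of all genes with any window. HNRNPA1 had 30 windows, 28 of them in exons, and its strongest was in a short intron on chromosome 12, 54281952 to 54282041, with 148 IP and 0 input reads (7.46 and 7.58). SNRNP70, the U1-70K gene, had 40 windows with 13378 IP reads against 990 input reads. SRSF11 had 35 with 8338 IP reads and SRSF3 9 with 1206. The kinases of SR proteins were represented by 8 of 9 genes, all 8 of those with a window in any list, with CLK2 highest at 26 windows. Transcript level was not available for a correction of these counts.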

How the data were processed

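Per the labels, 2 RBM10 IP and 2 matched input eCLIP libraries came from HEK293T cells, and nothing says that replicates were separate cultures, so their spread may be technical. Coordinates are 1-based in hg38, the build in the submitters' processing notes. Aligner, caller and annotation version were not given in the sources used here. Each window has an IP count and an input count of reads, deposited as sums over replicates. The log2 enrichment (a log2 odds ratio, per the file headers), each window's p-value and q-value range over replicates and the GC fraction were deposited by the authors. The largest q-value in the RBM10 list was 0.1998. Library depth is unknown, since only reads in listed windows are given.

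The authors' 18 feature types were grouped into 16 classes. Windows were matched between lists by identical position and strand. Exon and proximal neighbours were listed windows that touched the window next to the 3' splice site. The 5' splice site neighbours were found through the deposited feature numbers. Sequences came from RefSeq tables (GRCh38.p14). Intervals are exact Clopper-Pearson intervals at 95%. No test was run, because no per-library value was available.

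Members, gene lists and rules were chosen with earlier results of these data known. Named windows were the 5 per class with the highest lower-replicate enrichment and at least 20 IP reads. Named genes were the 10 with the most windows, 3' splice site windows, deep intron windows or IP reads, and genes of the 10 lists. The runs of joined windows, the sequences and the hairpins were chosen after their values were seen. Alternatives were a q-value of 0.05 or lower in each replicate, at least 50 IP reads and at least 1 input read. Further alternatives were joining of adjoining windows of the same class, weighting by IP reads and the higher replicate's enrichment. That joining gave 24828 regions, against the 22031 regions joined across classes. Python 3.11.15, numpy 2.4.6, pandas 2.3.3, scipy 1.17.1 and matplotlib 3.10.9 were used.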

Additional observations from a re-analysis of the deposited data

How the results depend on the processing

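No paired analysis was possible because the counts are sums over replicates, and leaving out each replicate could not be run for the same reason. The share of windows next to 3' splice sites, 32.0% in the whole list, was 42.3% where the q-value was 0.05 or lower in each replicate (the q-value limit), 29.9% with at least 50 IP reads, 31.1% with at least 1 input read, 36.8% after joining adjoining windows and 26.3% weighted by IP reads. In the same order, the deep intron share was 10.7%, 14.4%, 14.3%, 12.1% and 13.1%. The coding share was 1.36%, 3.19%, 4.35%, 4.197% and 3.08%. The 5' splice site share was 4.76% with the q-value limit, 7.89% after joining and 5.49% weighted by reads. The share also in the RBM22 list was 6.29% with the q-value limit, 8.68% with at least 50 IP reads, 5.90% with at least 1 input read and 17.1% weighted by reads, and that in the RNPS1 list 32.1%, 35.0%, 31.3% and 39.7%. The enrichment difference between 3' splice sites and deep introns, 0.44, was 0.022 with the q-value limit, 0.64 with at least 50 IP reads and 0.29 with the higher replicate's values. The GC difference was -1.0, -2.10 and -5.04 points with the q-value limit, at least 50 IP reads and at least 1 input read. Genes numbered 3095 with the q-value limit and 3079 with at least 50 IP reads, against 5095. The 3' splice site share stayed the largest of these 4 class shares in every setting. Leaving out small RNAs and primary miRNAs, an alternative chosen after seeing the data, kept 28484 of 28544 windows. Window shares, medians and the number of genes could therefore hardly change, so this setting tests little. It was not applied to the shares weighted by IP reads. The causes of the shifts between settings were not tested.

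Few input reads limit single enrichment values, and the depth of the libraries is unknown. Near-identical snRNA copies make single U2 and U6 values uncertain.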
